A study of Danio rerio with 6 samples.

Results

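The circadian clock genes of zebrafish were examined in RNA from cells sorted as olfactory sensory neurons. They were taken by name: 45 of the 32469 gene rows carry a symbol of the Period, cryptochrome, Clock, Bmal, Rev-erb, ROR, PAR bZIP, Nfil3, casein kinase 1 delta and epsilon, Bhlhe40 and Bhlhe41, Ciart or Aanat families. The names CRY2, nfil3-3 and tefb also fit the rule and were not analysed here. Of the 45 genes, 20 have capital symbols as used for orthologues in other species. The symbols BMAL1, CLOCK, CRY1 and PER1 each stand for 2 genes, which are told apart here by their Ensembl identifiers.

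The cells came from larvae at 5 days post fertilization that carry OMP-Gal4 and UAS-GCaMP1.6, transgenes that put a green fluorescent calcium sensor under the promoter of OMP, expressed in mature olfactory neurons. Heads were dissociated and green cells were collected. The 3 gallein samples had been kept in 100 µM gallein, a small-molecule inhibitor of G protein beta-gamma signalling, and the 3 control samples in the solvent DMSO. Exposure began between 16 and 20 hours post fertilization, and the medium was renewed every 24 hours until collection. The labels call the samples biological replicates. The sources used here give neither the hour of collection, the light schedule nor the number of animals behind a sample.

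The vertebrate clock is a feedback loop. CLOCK, or its relative NPAS2, pairs with BMAL to switch on genes that carry an E-box, among them the Period and cryptochrome genes, whose proteins then hold the pair back. A second loop runs through the nuclear receptors: REV-ERB proteins (nr1d genes) repress and ROR proteins activate transcription of Bmal1. In zebrafish, cells of many tissues hold clocks that light can set directly, and per2 and a cry1 gene are known there as light-induced members of the loop.

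Libraries held between 30822664 and 40295728 gene counts, of which 63583 to 166324 belonged to clock genes, and 41 to 44 of the 45 genes had at least 1 count in a library. Levels are CPM, the counts scaled to a common library total after TMM correction. They are not divided by transcript length, so levels of different genes are not ranked. The TMM factors differed between the groups. In order of replicate, they were 1.05, 1.45 and 1.25 among controls and 0.69, 0.64 and 1.20 in gallein. The label of the cells was checked against 6 genes of ciliated olfactory neurons (OMP, gnal, cnga4, cngb1b and both genes named ADCY3). They summed to 58.0 to 60.0 CPM among controls and 16.3 to 37.4 CPM in gallein, and cngb1b and the ADCY3 gene ENSDARG00000017437 had no count in gallein replicate 2. Genes from lists for other tissues were present in every library. In controls and gallein respectively, their summed levels were 2180 to 15291 and 585 to 22427 CPM for 17 photoreceptor and pineal genes, 717 to 1051 and 1411 to 1702 CPM for 19 brain genes, 925 to 2576 and 1739 to 4290 CPM for 16 lens genes, 910 to 4215 and 1431 to 3716 CPM for 14 muscle genes, 1755 to 10477 and 1847 to 7394 CPM for 15 skin genes, 38.2 to 112 and 69.8 to 287 CPM for 9 erythroid genes, and 3.83 to 16.8 and 5.24 to 48.7 CPM for 8 myeloid genes. The brain list includes general neuronal genes, among them SNAP25, SYT1, STMN2 and ELAVL3. Its sum therefore cannot be read as the presence of brain cells among sorted neurons. The sums of the ciliated neuron and brain lists did not overlap between the groups, and the part of either in the values below was not tested. In sorted bulk RNA, fewer cells of a type and less RNA per cell cannot be told apart. Gallein replicate 2 stood apart, with 8.86% of its gene counts from the mitochondrial genome against 31.7% to 40.5% in the other 5 libraries. Spike-in RNA amounted to 2.29% to 4.75% of gene counts among controls and 6.03% to 10.1% in gallein, and its part in the values below was not tested.

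No clock gene passed the threshold between gallein and control. Enough counts for the test were found in 43 of the 45 genes. By edgeR's quasi-likelihood test with Benjamini-Hochberg adjustment over 18271 genes, 0 of the 43 were called higher and 0 lower (adjusted p from 0.758 to 0.996), where the share called among all genes was 0%. Only the BMAL1 gene ENSDARG00000035732 had an unadjusted p under 0.05, which is 1 of 43 against 6.5% of all genes. The DESeq2 Wald test called 0.54% of the genes it judged and 0 of 41 clock genes, and limma-voom called 0 of 43 (0% of all genes). The median standard error of a log2 fold change among clock genes was 0.84, so differences of moderate size were not detectable with these replicates. Large ones were not called by edgeR either. Over all genes tested, log2 fold changes ran from -9.26 to 9.85, and the lowest edgeR adjusted p was 0.756. The absence of calls therefore does not show that clock genes were unchanged.

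Most clock genes had lower mean levels in gallein, by amounts within the spread between libraries. The log2 fold change was negative in 29 and positive in 14 of the 43 tested genes, with a median of -0.39, against 47.3% negative and a median of 0.07 over all genes tested. It lay 0.46 log2 units below the median of all genes. Relative to all genes, the median ran from -0.57 (without gallein replicate 1) to -0.25 (without control replicate 2) when 1 library was left out. It was -0.49 to -0.40 under the other scalings, and -0.17 in limma-voom or with the replicate number as a block. The signs were 34 negative and 9 positive with library size only (median of all genes -0.49). They were 42 negative and 1 positive with spike-in totals (median of all genes -1.67). In 3 genes, CRY1 (ENSDARG00000045768), tefa and rorcb, all gallein samples lay below all controls, which is 6.98% of the clock genes against 5.22% of all genes. Of these, rorcb had only 1, 4 and 49 counts in gallein. With library size only, cry3b took its place, and the 6.98% stood against 11.25% of all genes. In 0 of the clock genes all gallein samples lay above, against 3.81% of all genes. The sign of the fold change was the same in every fit that left out 1 library for 22 of the 43 genes, or 51.2%, and for 48.4% of all genes.

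**Figure D1:**
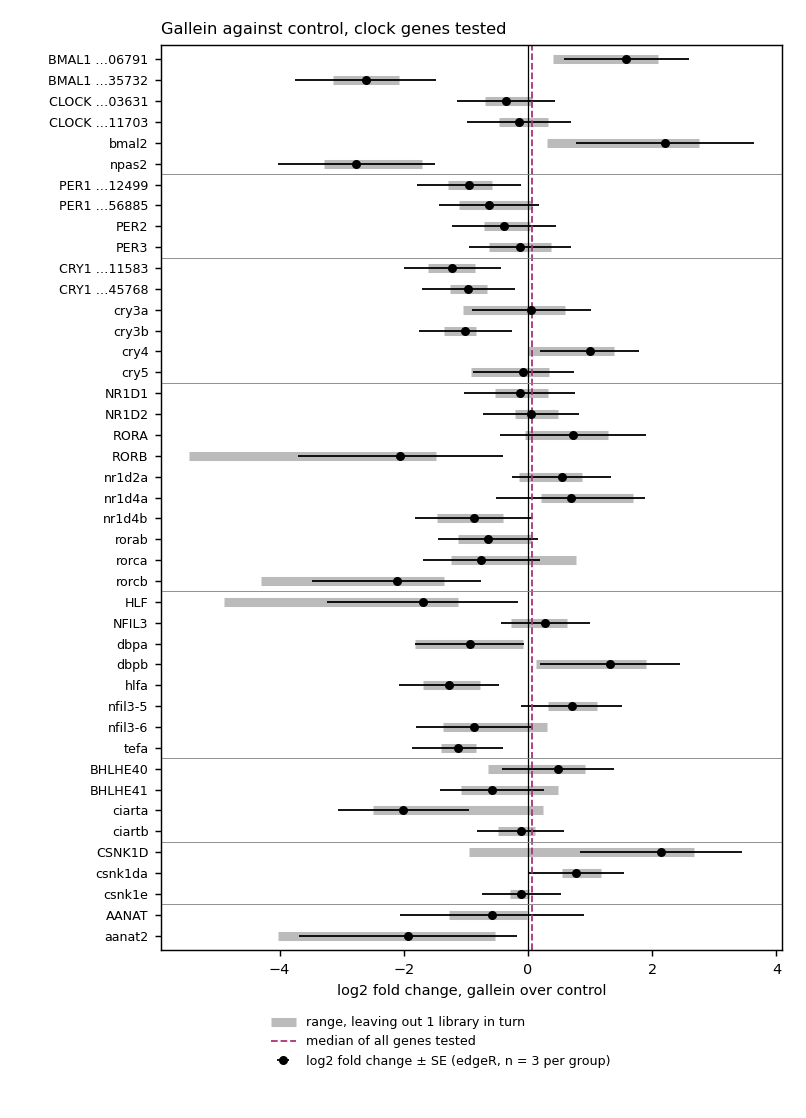
Log2 fold change of gallein over control (x axis) for the 43 tested clock genes, grouped by role (y axis; genes that share a symbol carry the end of their identifier). Points and thin bars are the edgeR estimate and its SE with 3 samples per group, thick grey bars the range over fits that leave out 1 library, and the dashed line the median of all genes tested at 0.07. Most points lie left of it, and the grey bars of 21 of the 43 genes reach across 0, among them ciarta and CSNK1D.

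Among the activators, the widest differences belonged to a BMAL1 gene and to npas2, and both were uneven withamong controls. BMAL1 (ENSDARG00000035732), the partner of CLOCK, stood at 52.6, 4.76 and 45.5 CPM among controls and at 7.72, 0.482 and 8.52 CPM in gallein, replicates 1 to 3 being given in order here and below. Control replicates 1 and 3 were high, while control replicate 2 fell within the gallein range, so the groups overlapped. The log2 fold change was -2.62 ± 1.14 (SE, unadjusted p = 0.0434, edgeR adjusted p = 0.758), and it ran from -3.14 to -2.08 when 1 library was left out.

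The other gene named BMAL1 (ENSDARG00000006791) went the opposite way in its mean. It was at 0.957, 3.65 and 2.24 CPM among controls and at 4.49, 14.5 and 1.55 CPM in gallein, where replicate 2 was highest and replicate 3 lay within the control range (log2 fold change 1.58 ± 1.01, SE, edgeR adjusted p = 0.799). The ratio of counts of the first BMAL1 gene to the second was 54.9, 1.31 and 20.3 among controls and 1.72, 0.0332 and 5.51 in gallein. The ranges overlapped, and gallein replicate 2 was the only library where the second gene had the more counts.

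The related bmal2 was at 0.101, 0.514 and 0.692 CPM among controls and at 0.152, 5.01 and 0.923 CPM in gallein, so its positive value (2.20 ± 1.43, SE, edgeR adjusted p = 0.803) came from gallein replicate 2 and was 0.31 without that library. The level of npas2, whose protein can take the place of CLOCK, was 0.428, 13.8 and 6.02 CPM among controls and 1.41, 0.193 and 1.36 CPM in gallein. Control replicates 2 and 3 were high and control replicate 1 lay among the gallein libraries (-2.76 ± 1.26, SE, edgeR adjusted p = 0.767). CLOCK itself had smaller differences. CLOCK (ENSDARG00000003631) stood at 13.0, 36.4 and 42.1 CPM among controls and at 33.9, 7.76 and 30.0 CPM in gallein (-0.35 ± 0.79, SE), and the second CLOCK gene ranged from 2.04 to 6.92 CPM over all libraries (-0.14 ± 0.84, SE).

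The 4 Period genes, which encode the repressor arm with the cryptochromes, all had negative log2 fold changes, from -0.95 to -0.13, and 0 of 4 were called. Their median was -0.51, and without control replicate 2 they split into 2 negative and 2 positive. In that fit the median was -0.39. Relative to the median of all genes it was -0.54, against -0.58 with all libraries. PER1 (ENSDARG00000012499) was at 257, 116 and 351 CPM among controls and at 136, 63.8 and 175 CPM in gallein, so control replicate 2 lay below 2 of the gallein libraries (-0.95 ± 0.84, SE, edgeR adjusted p = 0.868). The second PER1 gene ranged from 15.4 to 51.0 CPM among controls and from 5.97 to 30.0 CPM in gallein (-0.62 ± 0.81, SE). PER2, light-induced in zebrafish, was at 261, 403 and 132 CPM among controls and at 124, 200 and 282 CPM in gallein. Its groups covered much of the same range (-0.39 ± 0.84, SE, edgeR adjusted p = 0.961), and the value was 0.04 without control replicate 2. PER3 lay between 28.1 and 56.0 CPM in 5 libraries and at 6.79 CPM in gallein replicate 2 (-0.13 ± 0.83, SE, and 0.36 without that library).

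Among the 6 cryptochrome genes, both genes named CRY1 and cry3b had lower mean levels in gallein, cry3a and cry5 had values near 0, and cry4 was higher in 1 library. CRY1 (ENSDARG00000045768), a repressor of CLOCK and BMAL, stood at 107, 144 and 87.4 CPM among controls and at 79.9, 30.8 and 63.2 CPM in gallein. Every gallein sample lay below every control, by a gap of 79.9 to 87.4 CPM at the nearest pair (-0.96 ± 0.75, SE, edgeR adjusted p = 0.836). The other CRY1 gene (ENSDARG00000011583) was at 31.1, 38.1 and 9.64 CPM among controls and at 12.4, 5.01 and 16.4 CPM in gallein (-1.22 ± 0.78, SE, edgeR adjusted p = 0.801), with control replicate 3 inside the gallein range. Alignments that were not unique were counted apart from the genes and made up 9.5% to 22.3% of a sample's total. How alike the genes of 1 name are was not examined, so the division of reads between them may be uncertain.

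For cry3b the levels were 5.16, 10.8 and 10.9 CPM among controls and 3.39, 6.36 and 3.58 CPM in gallein, so that control replicate 1 alone lay within the gallein range (-1.01 ± 0.75, SE, edgeR adjusted p = 0.831). Its namesake cry3a was at 169, 369 and 143 CPM among controls and at 488, 60.1 and 158 CPM in gallein. Gallein held both the highest and the lowest library (0.05 ± 0.96, SE), and the value was -1.05 without gallein replicate 1. For cry4, gallein replicate 2 stood alone at 26.0 CPM, above a range of 4.64 to 8.64 CPM over the other 5 libraries, and without that library the log2 fold change went from 0.99 to 0.00. The gene cry5, which encodes the 6-4 photolyase that repairs ultraviolet damage with the energy of light, ranged from 5.28 to 10.2 CPM among controls and from 2.51 to 13.9 CPM in gallein (-0.08 ± 0.81, SE).

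**Figure D2:**
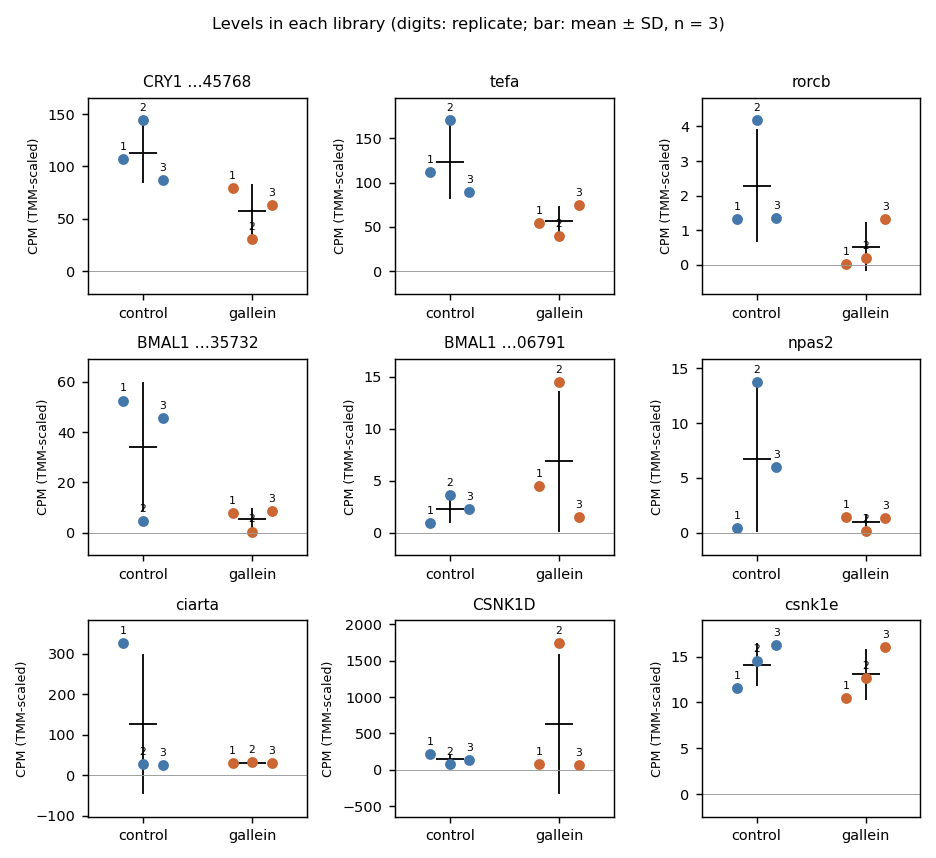
Level of 9 clock genes in each library, in CPM after TMM scaling (y axis, from below 0 to show the error bars), for controls (blue) and gallein (orange). Points carry the replicate number, and bars are the mean ± SD over 3 samples. The groups are apart for the CRY1 gene, tefa and, by a small margin, rorcb, while single libraries stand out for ciarta (327 CPM in control replicate 1) and CSNK1D (1741 CPM in gallein replicate 2).

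The PAR bZIP genes, whose proteins activate through D-box elements, and the nfil3 genes, whose proteins repress through the same element, gave values of either sign. Of 8 tested genes 5 were negative, against 47.3% of all genes, and 0 were called. Their median was -0.91, or -0.98 relative to all genes. Without control replicate 2 these medians were -0.34 and -0.49. The level of tefa was 112, 170 and 89.1 CPM among controls and 54.0, 39.9 and 75.2 CPM in gallein. All gallein samples lay below all controls (-1.13 ± 0.74, SE, edgeR adjusted p = 0.803), and the value ran from -1.40 to -0.84 when 1 library was left out. For hlfa the levels were 25.7, 98.4 and 139 CPM among controls and 50.8, 29.5 and 28.7 CPM in gallein, where control replicate 1 was the lowest of the 6 libraries (-1.27 ± 0.81, SE, edgeR adjusted p = 0.799).

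The 2 dbp genes pointed in opposite directions. Mean levels of dbpa were 30.5 ± 23.7 CPM among controls and 15.9 ± 13.3 CPM (SD, n = 3) in gallein. The value of -0.94 was -0.08 without control replicate 3. Those of dbpb were 19.6 ± 8.06 and 48.9 ± 51.7 CPM, with gallein replicate 3 at 104 CPM and gallein replicate 2 at 1.30 CPM. The count ratio of dbpa to dbpb was 0.920 to 2.11 among controls, while gallein replicates 1, 2 and 3 had 0.102, 23.3 and 0.125, so the gallein libraries lay on both sides of the controls. The gene HLF had 48, 45 and 82 counts among controls and 2, 0 and 40 in gallein, which overlapped once scaled to CPM (-1.70 ± 1.54, SE). Among the nfil3 genes, NFIL3 (0.28), nfil3-5 (0.70) and nfil3-6 (-0.87) had overlapping groups, nfil3-6 was at 0.31 without control replicate 2, and nfil3-4 had no count in any library.

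The nuclear receptors of the second loop gave 6 negative and 4 positive values among 10 tested genes, and 0 were called. NR1D1, a REV-ERB repressor, was at 381, 243 and 130 CPM among controls and at 338, 75.8 and 273 CPM in gallein (-0.14 ± 0.89, SE, edgeR adjusted p = 0.990). NR1D2, its closest relative, was at 123, 212 and 84.8 CPM among controls and at 133, 117 and 184 CPM in gallein (0.05 ± 0.77, SE, edgeR adjusted p = 0.996). All gallein values of NR1D2 lay within the control range. For nr1d2a, nr1d4a and nr1d4b the values were 0.54, 0.69 and -0.88, with overlapping groups.

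Of the ROR genes, activators at the same element, rorcb alone had groups that did not overlap. It stood at 1.33, 4.18 and 1.36 CPM among controls and at 0.0380, 0.193 and 1.33 CPM in gallein (-2.11 ± 1.36, SE, edgeR adjusted p = 0.802). Control replicate 1 and gallein replicate 3, with 53 and 49 counts, were nearly equal, and the groups overlapped when library size alone was used for scaling. RORB had 9, 270 and 199 counts among controls and 0, 3 and 77 in gallein, again with overlap (-2.06 ± 1.65, SE). RORA ranged from 0.530 to 15.4 CPM over the 6 libraries. The level of rorab was 51.8 to 151 CPM among controls and 25.7 to 86.4 CPM in gallein, and that of rorca 2.44 to 43.6 and 8.41 to 13.4 CPM. Control replicate 2 was the highest library for both, and without it their values were 0.04 and 0.78 in place of -0.64 and -0.75. The gene rorc had 67, 29 and 0 counts among controls and 0, 0 and 1 in gallein and was not tested.

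Single libraries set the largest values among the other repressors and the kinases. For ciarta, which encodes a repressor of CLOCK and BMAL, control replicate 1 was at 327 CPM, far above the 26.2 to 32.1 CPM of the other 5 libraries. The log2 fold change went from -2.01 ± 1.05 (SE, edgeR adjusted p = 0.779) to 0.24 without that library. Its namesake ciartb was at 59.0 to 77.5 CPM among controls and 43.0 to 93.4 CPM in gallein (-0.12 ± 0.70, SE), with 77.5 CPM in control replicate 1. The count ratio of ciarta to ciartb was 4.22 in control replicate 1 and 0.340 to 0.715 elsewhere. DESeq2 gave ciarta and CSNK1D no adjusted p.

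BHLHE40, a repressor at E-boxes, was at 138, 176 and 139 CPM among controls and at 440, 133 and 59.3 CPM in gallein (0.48 ± 0.91, SE, edgeR adjusted p = 0.955). Gallein replicate 1 was the highest and gallein replicate 3 the lowest library, and the controls differed little. Without gallein replicate 1 the value was -0.65. BHLHE41, of the same family, ranged from 8.78 to 61.5 CPM, both ends being controls (-0.58 ± 0.84, SE).

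Casein kinase 1 delta and epsilon phosphorylate Period proteins and set how long they last. CSNK1D was at 217, 76.6 and 134 CPM among controls and at 76.2, 1741 and 70.6 CPM in gallein. Gallein replicate 2 alone was high, and the log2 fold change went from 2.14 ± 1.30 (SE, edgeR adjusted p = 0.793) to -0.96 without it. The level of csnk1da was 149, 72.8 and 80.6 CPM among controls and 180, 116 and 218 CPM in gallein, and control replicate 1 lay within the gallein range (0.77 ± 0.77, SE, edgeR adjusted p = 0.886). The most even clock gene was csnk1e, at 11.6, 14.5 and 16.2 CPM among controls and 10.5, 12.6 and 16.1 CPM in gallein. Its highest library was 1.55 times its lowest, against a median of 7.22 over the 40 tested clock genes with counts in every library and of 8.52 over all such genes.

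AANAT and aanat2 encode the enzyme that makes the precursor of melatonin, and in fish aanat2 is known from the pineal organ. AANAT had 60, 75 and 1 counts among controls and 29, 14 and 4 in gallein (-0.58 ± 1.48, SE, edgeR adjusted p = 0.966). For aanat2 there were 1, 155 and 37 counts among controls and 0, 3 and 28 in gallein (-1.93 ± 1.76, SE, edgeR adjusted p = 0.870). Control replicate 2 held most of them, and the value was -0.52 without it. Of the 16 photoreceptor and pineal genes tested, 11 were also highest in control replicate 2, 4 in gallein replicate 2 and 1 in gallein replicate 1. The summed level of the list was highest in gallein replicate 1, at 22427 CPM, against 15291 CPM in control replicate 2. Of the former, 20480 CPM came from the cone opsin opn1sw2 alone, which was at 889 CPM in control replicate 2. Gallein replicate 1 had no aanat2 count. The part of these genes in the aanat2 value was not tested.

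**Figure D3:**
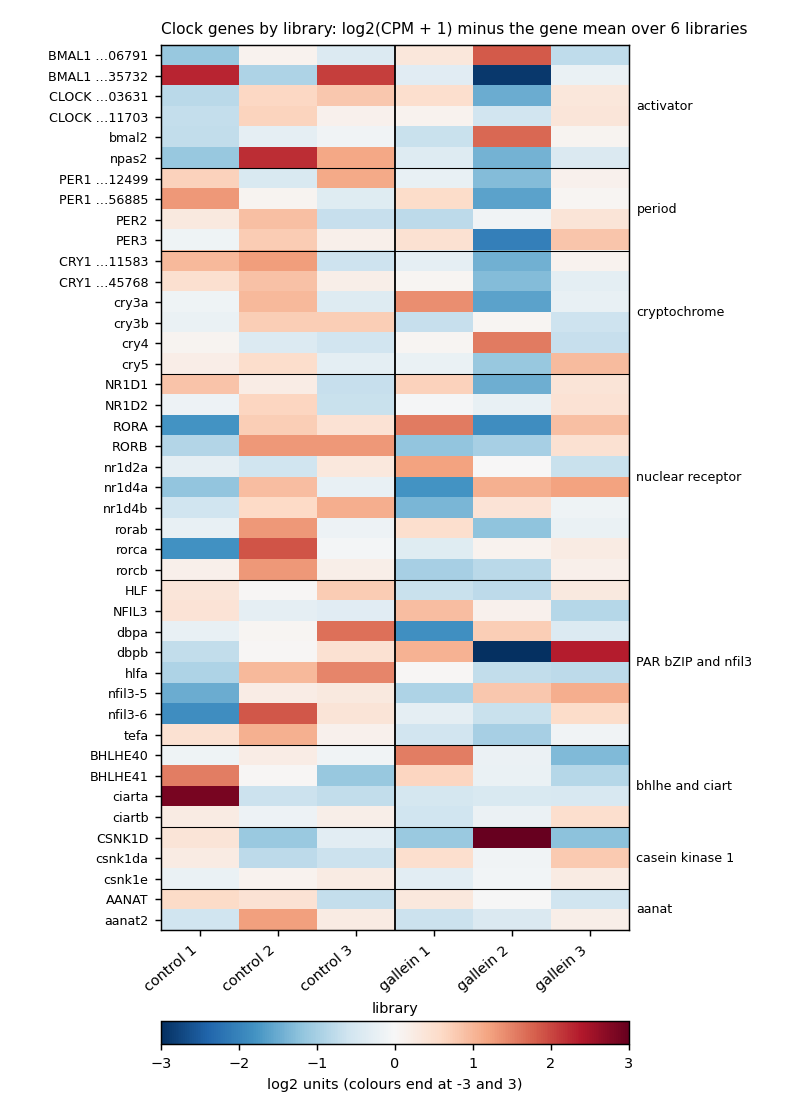
Levels of the 43 tested clock genes (rows, grouped by role) in the 6 libraries (columns), as log2(CPM + 1) minus the mean of the gene over the libraries. Red is above and blue below that mean. Gallein replicate 2 is blue for most genes and dark red for CSNK1D, and ciarta is dark red in control replicate 1 only.

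Libraries of 1 group differed as much as the groups did. Control replicate 2 held the highest level of 13 of the 43 genes, or 30.2%, where it held the highest level of 14.0% of all genes tested. Gallein replicate 2 held the lowest level of 16, or 37.2%, against 30.0% of all genes. The median deviation of the clock genes from their means, on the log2(CPM + 1) scale, was -0.14, 0.53 and 0.14 among controls and -0.22, -0.46 and 0.10 in gallein, so the groups overlapped. Over all genes tested these medians lay between -0.21 and -0.01. Without control replicate 2 the clock genes split into 22 negative and 21 positive values. Their median was then -0.09, against 0.15 over all genes in that fit.

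In 8 of the 43 genes, or 18.6%, the highest library was at least 3 times the next one, which is close to the 18.9% among all genes. They were ciarta, high in control replicate 1, then rorca, rorcb and aanat2 in control replicate 2, and CSNK1D, bmal2, cry4 and BMAL1 (ENSDARG00000006791) in gallein replicate 2. No library of the other 3 held such a value. The threshold of 3 was chosen after the values were seen.

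**Figure D4:**
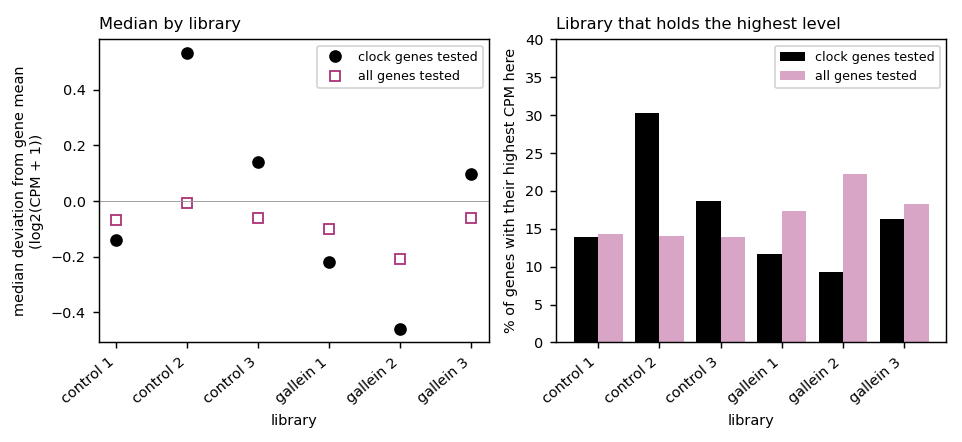
Left, the median deviation of the 43 clock genes (black points) and of all 18271 genes tested (open squares) from the gene means, in log2(CPM + 1), for each library. Right, the percentage of either set with its highest CPM in each library. Control replicate 2 is highest for the clock genes on both panels, at 0.53 and 30.2%.

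Genes around the clock were taken from lists by name and gave 0 calls in edgeR. Of 29 tested regulators of clock proteins, 9 had negative and 20 positive values, with a median of 0.29 against 0.07 over all genes. USP2, a deubiquitinase, was at 26.8, 21.8 and 17.7 CPM among controls and at 6.54, 10.9 and 8.55 CPM in gallein, all gallein samples being lower (-1.35 ± 0.65, SE, edgeR adjusted p = 0.779). NONO, which binds Period proteins, lay at 24.0 to 40.1 CPM among controls and 49.2 to 149 CPM in gallein (1.30 ± 0.76, SE, edgeR adjusted p = 0.787). NCOR1, a corepressor of REV-ERB proteins, had an unadjusted edgeR p of 0.0382 (2.69 ± 1.13, SE, edgeR adjusted p = 0.756). It lay at 66.6 to 83.7 CPM among controls and at 1221, 109 and 111 CPM in gallein. All gallein samples were higher, gallein replicate 1 by far the most. Among the 29 regulators, the gallein range was wholly under the control range in 2, USP2 and id2b (-1.13 ± 1.05, SE). It was wholly over the control range in 2, NONO and NCOR1. The shares of all genes tested were 5.22% under and 3.81% over. An unadjusted edgeR p under 0.05 was found in 1 of the 29, NCOR1, against 6.5% of all genes. SIRT1, a deacetylase, had overlapping groups (1.42 ± 0.82, SE).

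Opsins of a light-input list had enough counts in 8 of 21 genes, with 6 negative and 2 positive values. Over all genes tested, 47.3% of values were negative, which is the share to set beside the signs in this paragraph. All gallein samples lay below all controls in 2 of the 8, against 5.22% of all genes tested. These were the OPN4 (melanopsin) gene ENSDARG00000053929, at 0.554 to 1.90 CPM against 0 to 0.304 CPM, and valopb, at 0.781 to 2.33 CPM against 0.152 to 0.380 CPM. Their values were -3.11 ± 1.54 and -2.37 ± 1.22 (SE, edgeR adjusted p = 0.779 for both). Both were near the floor in gallein and had enough counts for the test only through their controls. The count of 2 of 8 is therefore not independent of the filter and is no support for a difference. The other OPN4 gene (-1.88 ± 1.20, SE) was at 18.1 CPM in control replicate 2 and at most 4.58 CPM elsewhere, and RGR was likewise highest there, at 39.4 CPM (-0.91 ± 0.72, SE). Of 9 tested DNA repair genes, 7 were negative and 2 positive. In 1 of the 9, ERCC4, all gallein samples lay below all controls. ERCC4 was at 4.07 to 7.46 CPM among controls and 1.88 to 2.85 CPM in gallein (-1.21 ± 0.80, SE), cry-dash, a relative of the photolyases, at 10.1 to 33.8 and 2.17 to 23.0 CPM, and XPC at 4.17 to 10.3 and 0.434 to 5.86 CPM. ERCC1 (2.24 ± 1.08, SE) was at 30.2 CPM in gallein replicate 2 and at most 5.21 CPM elsewhere. In the melatonin list, 6 of 6 tested genes had positive values with overlapping groups. For asmt2, of the family that completes melatonin synthesis, gallein replicate 1 stood at 19.7 CPM and gallein replicate 3 at 1.52 CPM, below all controls (2.01 ± 0.99, SE, edgeR adjusted p = 0.779). TPH2 (1.89 ± 1.46) and TPH1 (ENSDARG00000029432, 1.31 ± 1.41), of the first step of serotonin synthesis, and mtnr1aa (1.22 ± 1.47), a melatonin receptor, had overlapping groups as well. The highest levels were 6.43 CPM of TPH2 in gallein replicate 3 and 6.77 CPM of TPH1 in gallein replicate 1. Elsewhere these 2 genes reached at most 1.18 and 1.31 CPM.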

How the data were processed

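Poly(A)-selected RNA was sequenced from 3 control and 3 gallein samples. The authors deposited raw read counts per gene, 2 files per sample; per the submitters' processing notes, TopHat2 2.0.4, HTSeq and build Zv9 were used. The sources used here do not give the annotation release, counting mode or strand setting, and without strand overlapping and antisense genes cannot be told apart. The 2 files differed by little more than sampling noise (chi-square per gene 1.37 to 1.76, against 426 to 1621 between replicates) and were summed as 1 replicate. Rows naming no gene (19.4% to 33.9% of a sample's total) and 92 spike-in rows stayed out of the tests.

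Gene symbols named 20734 of 32469 identifiers. Group differences in counts came from edgeR 4.0.16 under R 4.3.3 (TMM, filterByExpr with minimum count 10, robust quasi-likelihood, group as the only term), with Benjamini-Hochberg adjustment over 18271 genes and a threshold of 0.05, two-sided. The SE is the size of the log2 fold change divided by the square root of F. DESeq2 1.42.0 and limma 3.58.1 were alternatives. The edgeR steps were run on simulated counts, with a pass required only at a dispersion (variability between replicates) of 0.05. The common dispersion of these data was 0.80. The run at 0.05 therefore does not show how many real differences would be called here. Another run used the dispersion estimated for each gene from these data, and its calls are not reported here.

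Genes given in full were those with a mean of at least 1 CPM and either no overlap or an unadjusted p under 0.05, the 12 with the smallest p, and the 2 most abundant of each role. From each other list up to 4 genes with the smallest p are named. Members and lists were chosen with earlier results of these data known. Motif counts in promoters were not made. Shared replicate numbers were not taken as pairs (see the closing section). P-values weigh the difference between groups against the variability estimated from these samples.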

Additional observations from a re-analysis of the deposited data

How the results depend on the processing

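Over the alternatives run, 0 clock genes were called in any fit, and edgeR called 0 genes of all, while the DESeq2 Wald test called 93 genes. The median of the clock genes was -0.89 with library size only and -2.09 with spike-in totals, moving with the median of all genes, and -0.63 to -0.09 leaving out 1 library. The count of clock genes with all gallein samples below the controls was 12 with spike-in scaling (27.9%, against 29.9% of all genes). With library size only it was 3 (6.98%, against 11.25% of all genes). Leaving out 1 library gave 4 to 10, the 10 being without control replicate 1 (23.3%, against 10.5% of all genes). The clock share was under that of all genes without gallein replicate 1 (9.30% against 11.8%) and without gallein replicate 3 (13.95% against 15.2%). It was over that share in the other fits that left out 1 library. The count above was 0 to 3 leaving out 1 library, against 6.33% to 11.3% of all genes. These overlap counts, and medians relative to all genes, were added after the data were seen. With the replicate number as a block the median was -0.28. Same-numbered samples correlated in their deviations at 0.07, -0.12 and 0.18, and not every sample correlated best with its own number, so the numbers were not read as pairs. Over the 43 genes the sign changed in 13 with spike-in totals, 5 with library size only, 4 with the block and 21 in at least 1 fit that left out a library. Among the 22 genes given in full it changed for AANAT (0.025) and BHLHE40 (-0.020) with the block. With spike-in totals it changed among these 22 for BMAL1 (ENSDARG00000006791, -1.005), bmal2 (-0.090), BHLHE40 (-1.74), CSNK1D (-0.056), csnk1da (-0.66), cry3a (-2.09) and NR1D2 (-1.77). With library size only these were BHLHE40 (-0.32), cry3a (-0.66) and NR1D2 (-0.49). For cry3a and NR1D2 it also changed with upper-quartile factors (-0.090 and -0.11) and with at least 10 counts in every sample (-0.024 and -0.031), and for cry3a in limma-voom (-0.31) and with the block (-0.24). Among the same 22, leaving out 1 library gave ranges across 0 for 8: CLOCK (ENSDARG00000003631, -0.70 to 0.070), BHLHE40 (-0.65 to 0.92), ciarta (-2.49 to 0.24), CSNK1D (-0.96 to 2.67), cry3a (-1.05 to 0.59), NR1D1 (-0.53 to 0.32), NR1D2 (-0.21 to 0.48) and PER2 (-0.71 to 0.038). The cause of these changes was not tested. Read counts without molecular identifiers do not count separate molecules.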
